A study of Mus musculus with 18 samples.

Results

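Deletion of the aryl hydrocarbon receptor (AhR, gene Ahr) in natural killer (NK) cells held at 1% oxygen was examined in 6 of the 18 RNA sequencing libraries of a mouse study. NK cells are lymphocytes that kill infected or transformed cells. They were isolated from spleen and grown in medium with 1700 U/ml of recombinant human interleukin 2 (IL-2) for 7 days. The 6 libraries are those whose labels give the Ahr genotype alone. The 3 Ahr KO libraries came from cells of Ncr1 iCre, Ahr fl/fl mice, and the 3 Ahr flox libraries came from cells whose genotype is written Ahr fl/f in the labels and Ahr fl/fl in the series design, without Cre. Both groups were hypoxic, both had IL-2, and both carried unmodified Hif1a as far as the labels say. The other 12 libraries belong to a Hif1a line and a Hif1a Ahr line, each with its own 3 flox and 3 KO libraries. Ncr1 encodes the NK receptor NKp46, so Cre is active in Ncr1-expressing cells only and the deletion is not one of the whole animal. No group of the series had Cre without a floxed allele, so an effect of Cre or of its insertion and an effect of the deletion cannot be told apart within this line. No normoxic group is described in the labels. The labels call the libraries biological replicates without saying how many animals stand behind each, so p-values measure the spread between these libraries.

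AhR is a transcription factor that lies in the cytoplasm bound to chaperones until a ligand binds, such as a tryptophan metabolite or a dietary indole. It then enters the nucleus and pairs with Arnt, and the pair binds DNA at a short element known as the xenobiotic or dioxin response element, which switches on genes for drug metabolism and the receptor's own repressor Ahrr. Arnt is also the partner of HIF-1α, the oxygen-regulated subunit of HIF-1, so AhR and HIF-1α share a partner in hypoxic cells. In innate lymphocytes AhR is known for its role in the maintenance and function of tissue-resident cells.

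The 6 libraries held 54420649 to 55633281 counts each, and 16743 of 56953 genes were tested. They are called flox 1 to 3 and KO 1 to 3 here, after their replicate numbers. A principal component analysis of the 1000 genes that varied most placed the flox libraries at -17.1, -5.35 and -13.0 and the KO libraries at 9.85, 14.7 and 10.9 on its first component (72.8% of variance). Library flox 2 lay nearest to the KO group, and it was the flox library nearest to the KO values in 601 of the 800 genes called lower and 254 of the 357 called higher. Every library held both Xist (167 to 422 CPM) and the Y-linked Ddx3y (23.4 to 64.4 CPM), neither of which was called, and library flox 2 had the lowest Xist and the highest Ddx3y value of the 6. The part of cell sex in the results was not tested. Summed NK identity markers, 10 genes including Klrb1c, Eomes and Prf1, lay at 19292 to 26190 CPM in Ahr flox and 25892 to 30634 CPM in Ahr KO, with 2 of the 10 called higher and 0 lower (5 and 3 with a replicate block, explained below). Summed over 12 markers, T cell genes lay at 566 to 589.8 CPM and 494 to 526 CPM, and 2 of the 12 were called lower: Cd3g (mean 74.2 ± 7.47 CPM in Ahr flox and 26.2 ± 0.626 CPM in Ahr KO; SD, n = 3), which was lost in no omission of a library, and Cd3d, which was lost without flox 1 (0.0609), flox 3 (0.0745), KO 1 (0.0587), KO 2 (0.0643) or KO 3 (0.0508). Of the 12 T cell markers 8 were above 0 and 4 below, with a median log2 difference of 0.39. C1qa of the macrophage list and Mcpt4 of the mast cell and basophil list were at 0 in all 6 libraries, while other members of both lists were present. Summed macrophage markers lay at 31.5 to 55.5 CPM and 24.2 to 30.2 CPM, and Cd68 was called lower, 1 of 4 tested (-1.04; adjusted p = 0.0063). The other 3 were above 0 and not called, the median of the 4 was 0.77, and the block called 1 of them higher, Cd14. Summed mast cell and basophil markers were 98.1 to 125 CPM in Ahr flox and 181 to 226 CPM in Ahr KO, nearly all of it from Mcpt8, which was not called (adjusted p = 0.214). All 3 tested members were above 0, with a median of 1.05, and edgeR called 0 of them (3 at an unadjusted p under 0.05). DESeq2 and the block each called 2 higher, Cpa3 and Cma1, and limma voom 1. Summed plasma cell markers lay at 282 to 316 CPM in Ahr flox and 367 to 383 CPM in Ahr KO, with 1 of 4 tested, the immunoglobulin gene Ighm, called higher (0.53; lost without flox 1 (0.0979), KO 1 (0.064) or KO 3 (0.0845)) and 2 with the block. Stromal and endothelial markers lay at 252 to 279 CPM and 287 to 342 CPM, with 0 of 3 tested called by edgeR, DESeq2 or limma voom, 1 at an unadjusted p under 0.05 and 1 higher with the block. The part of other cell types in the results was not tested. In bulk RNA, fewer cells of a type and less RNA per cell cannot be told apart.

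The targeted gene was read first. Ahr stood at 73.8, 77 and 78.5 CPM in the Ahr flox libraries and 90.7, 88.6 and 97 CPM in the Ahr KO libraries. Every KO value lay above every flox value, a log2 difference of 0.27 ± 0.20 (log2, SE; adjusted p = 0.515, and 0.0339 with the replicate block). The deposited counts are summed over the whole gene and would include a transcript that lacks a deleted exon, so they do not check the deletion. Hif1a stood at 59.5, 61.3 and 66.8 CPM in the Ahr flox libraries and 65.2, 67.6 and 68.9 CPM in the Ahr KO libraries (adjusted p = 0.663), and the groups overlapped. Arnt, the shared partner, was lower in each KO library, at 50.5 ± 2.1 CPM in Ahr flox and 44.3 ± 2.47 CPM in Ahr KO (SD, n = 3), and was not called at a difference of -0.19 ± 0.07 (log2, SE; adjusted p = 0.103). Among 13 tested genes listed as partners and chaperones of AhR and HIF, the co-activator Ncoa1 was called higher (0.33; lost without flox 1 (0.163), flox 2 (0.0547), flox 3 (0.101), KO 1 (0.0922), KO 2 (0.172) or KO 3 (0.0544)). Npas2, also listed as a circadian clock gene and at under 1 CPM, was called lower (lost without flox 1 (0.0971), KO 1 (0.0507) or KO 3 (0.0502)). The block called 2 higher and 2 lower.

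In all, 1157 genes (6.91% of those tested) were called between Ahr KO and Ahr flox cells at an adjusted p under 0.05: 800 were lower (4.78%) and 357 were higher (2.13%). The median log2 difference over all genes was 0.00. The 3 KO and 3 flox values did not overlap in 4857 of the 16743 tested genes (29%). Among the 1157 called genes they did not overlap in 1152, so a lack of overlap adds little to a call. Of the called genes 217 were at least 2-fold lower (1.3%) and 91 at least 2-fold higher (0.544%). With same-numbered replicates treated as pairs, a replicate block, 1388 genes were lower and 1033 higher. These counts out of the 16743 genes tested, and 800 and 357 without the block, are the background for the counts of list members below. Leaving out 1 library at a time gave 363 (without flox 1) to 902 lower genes (without flox 2) and 113 to 448 higher genes, with the same 2 libraries at the ends. A core of 309 lower and 82 higher genes (1.85% and 0.49% of genes tested) was called in each of 12 alternatives, among them every single-library omission. The genes described below as the largest falls and rises, and those named for size at 50 CPM or more, belong to that core. They were also chosen for groups that do not overlap, so their separation was fixed by that choice.

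**Figure D1:**
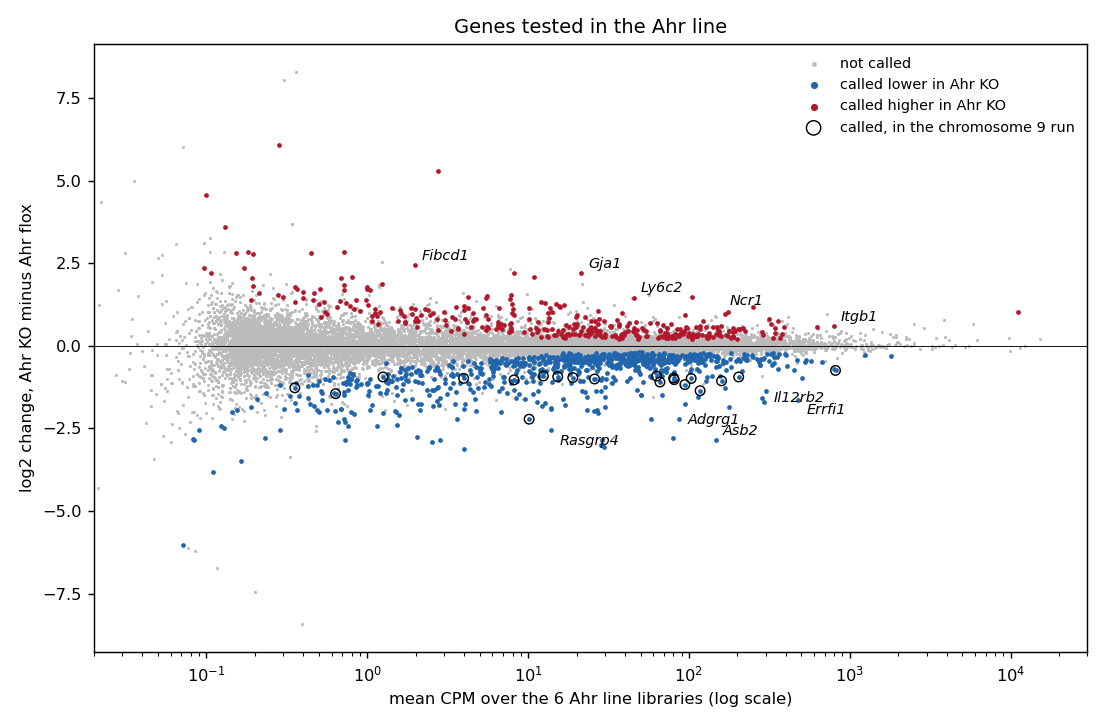
Mean expression (CPM, x axis, log scale) against the log2 difference between Ahr KO and Ahr flox cells (y axis) for the 16743 tested genes, where grey points were not called, blue points were called lower and red points higher, and rings mark called genes of a run of neighbours on chromosome 9. The 800 lower genes outnumber the 357 higher ones and include genes above 100 CPM such as Asb2, Il12rb2 and Errfi1, while few higher genes above that level exceed a log2 difference of 1.

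The classical AhR targets gave the reference for what followed. Of 20 genes of the battery 14 were tested, 6 fell and 0 rose, against 4.78% and 2.13% of all genes, with a median log2 difference of -1.61. Ahrr, the receptor's own repressor, stood at 67.8, 32.8 and 52 CPM in the Ahr flox libraries and 9.18, 5.17 and 6.86 CPM in the Ahr KO libraries and fell by 2.85 ± 0.47 (log2, SE; adjusted p = 0.00297). Scin, which encodes the actin-severing protein scinderin, stood at 517, 305 and 453 CPM in the Ahr flox libraries and 167, 123 and 133 CPM in the Ahr KO libraries and fell by 1.59 ± 0.30 (log2, SE; adjusted p = 0.00644). The ubiquitin ligase adaptor Asb2, the repressor Hic1 and the quinone reductase Nqo1 also fell, and Selenbp1 was called lower (-0.79) except without flox 1 (0.0516), flox 3 (0.0672) or KO 2 (0.0621). The groups did not overlap in any of these 6 genes, and flox 2 was the lowest flox library in each. The cytochromes Cyp1a1 and Cyp1b1, best known as AhR targets in liver and skin, stood below 2 CPM in every library. Their log2 differences were -1.63 ± 0.98 (log2, SE; adjusted p = 0.39, and 0.0154 with the replicate block) and -2.43 ± 1.08 (log2, SE; adjusted p = 0.222, and 0.0049 with the replicate block). Tiparp, an ADP-ribosyltransferase induced by AhR, stood at 166, 76.3 and 127 CPM in the Ahr flox libraries and 64.5, 44.5 and 53.1 CPM in the Ahr KO libraries, a difference of -1.19 ± 0.37 (log2, SE; adjusted p = 0.0759, and 6.05e-04 with the replicate block). With the block 9 of the 14 genes were lower. Fgl2 (-0.04) and Gpr15 (-0.01), a homing receptor that AhR induces in T cells, were not called.

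Promoter sequence was read for the named genes to see where the response element stands in them. The motif searched was TNGCGTG on either strand, in the 250 bases before each start in RefSeq (GRCm38.p6), a table that matched 11 of the 14 largest falls, with 15 promoters, and 11 of the 14 largest rises, with 15 promoters. It was present in 3 promoters of the falls (20%) and in 0 of the rises, beside 872 of 13983 promoters of tested genes (6.24%). Of the lower genes of the core 306 have a symbol and 232 matched the table, and the motif stood in 29 of their 294 promoters (9.86%). Of the higher genes 81 have a symbol and 56 matched, with the motif in 4 of 79 promoters (5.06%). Over all genes tested 11041 of 16246 matched. The shorter core GCGTG, which TNGCGTG contains, stood in 42.2% of all promoters and 40.1% of those of the lower core. The promoters shown are those that hold the motif among the 14 largest falls and the 8 falls of genes at 50 CPM or more, with the motif in capitals, each written 5′ to 3′ on the strand of its gene. Hic1 and Errfi1 each have 2 starts in the table, and the window of the other start holds no motif in either. In Errfi1 the window shown belongs to the second, and the motif reads on the opposite strand. The motif lies 96 bases before the start in Hic1, 29 in Ahrr, 59 in Unc5b and 137 in Errfi1. Nothing about binding of the receptor follows from a match or from its absence.
Hic1, chr11:75170256-75170505, minus strand: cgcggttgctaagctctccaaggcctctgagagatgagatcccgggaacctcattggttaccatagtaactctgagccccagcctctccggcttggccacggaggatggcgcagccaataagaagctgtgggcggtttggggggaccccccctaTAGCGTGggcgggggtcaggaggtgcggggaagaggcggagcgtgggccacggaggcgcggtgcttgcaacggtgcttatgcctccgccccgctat
Ahrr, chr13:74292332-74292581, minus strand: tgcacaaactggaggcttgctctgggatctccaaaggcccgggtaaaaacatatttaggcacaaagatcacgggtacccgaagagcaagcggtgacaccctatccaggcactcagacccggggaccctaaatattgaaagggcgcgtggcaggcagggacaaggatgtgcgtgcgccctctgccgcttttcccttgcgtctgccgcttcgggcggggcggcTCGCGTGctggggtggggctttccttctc
Unc5b, chr10:60831582-60831831, minus strand: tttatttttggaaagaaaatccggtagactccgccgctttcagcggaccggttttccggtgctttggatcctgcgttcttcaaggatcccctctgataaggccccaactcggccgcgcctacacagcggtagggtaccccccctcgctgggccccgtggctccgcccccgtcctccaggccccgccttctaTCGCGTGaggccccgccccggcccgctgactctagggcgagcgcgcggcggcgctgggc
Errfi1, chr4:150854820-150855069, plus strand: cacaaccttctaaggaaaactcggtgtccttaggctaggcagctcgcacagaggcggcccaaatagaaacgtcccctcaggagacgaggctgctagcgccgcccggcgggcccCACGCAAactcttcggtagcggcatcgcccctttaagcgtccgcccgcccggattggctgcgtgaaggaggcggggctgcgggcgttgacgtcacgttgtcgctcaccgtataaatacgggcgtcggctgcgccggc

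Surface receptors and signalling genes stood among the largest falls, together with Asb2 and Hic1, which belong to that battery. Unc5b, whose promoter is shown above and which encodes a netrin receptor, stood at 177, 96.5 and 142 CPM in the Ahr flox libraries and 27.8, 14.1 and 18.4 CPM in the Ahr KO libraries and fell by 2.78 ± 0.47 (log2, SE; adjusted p = 0.0034). Asb2 was the most abundant of the 14 largest falls, at 299, 219 and 255 CPM in the Ahr flox libraries and 43.1, 31.5 and 32.3 CPM in the Ahr KO libraries, and fell by 2.85 ± 0.32 (log2, SE; adjusted p = 1.81e-04). Hic1 stood at 75.3, 34.3 and 48.7 CPM in the Ahr flox libraries and 9.66, 4.1 and 5.36 CPM in the Ahr KO libraries and fell by 3.05 ± 0.46 (log2, SE; adjusted p = 0.00174). In all 3 genes every KO library lay far below the lowest flox library, and replicate 1 was the highest of each group.

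Rasgrp4, an exchange factor that loads Ras with GTP, stood at 33.2, 15.7 and 22.1 CPM in the Ahr flox libraries and 5.21, 2.98 and 3.91 CPM in the Ahr KO libraries and fell by 2.55 ± 0.41 (log2, SE; adjusted p = 0.00224). The adhesion receptor Adgrg1, also called GPR56, stood at 151, 122 and 156 CPM in the Ahr flox libraries and 33.8, 32.6 and 26.7 CPM in the Ahr KO libraries and fell by 2.20 ± 0.40 (log2, SE; adjusted p = 0.00577). Hvcn1, a voltage-gated proton channel, stood at 50.3, 35.4 and 45.1 CPM in the Ahr flox libraries and 12.9, 8.84 and 10.3 CPM in the Ahr KO libraries and fell by 2.03 ± 0.22 (log2, SE; adjusted p = 1.12e-04). The groups of these genes were separate by a factor of more than 2 between the nearest libraries. Lower in level were the secreted matrix protein gene Adamtsl3 (fell by 2.90 ± 0.40), the zinc finger gene Zmat4 (2.84 ± 0.29), the neuropeptide receptor Npffr1 (2.40 ± 0.44), Apol7b (2.22 ± 0.44) and the semaphorin Sema4f (2.02 ± 0.30), all under 7 CPM in every library. Among genes above 50 CPM, Errfi1, an inhibitor of the EGF receptor family whose promoter is shown above, stood at 834, 604 and 719 CPM in the Ahr flox libraries and 288, 210.2 and 197 CPM in the Ahr KO libraries and fell by 1.63 ± 0.15 (log2, SE; adjusted p = 7.59e-06). Emb, which encodes the membrane glycoprotein embigin, stood at 188, 108 and 144 CPM in the Ahr flox libraries and 54.3, 33 and 41.9 CPM in the Ahr KO libraries and fell by 1.77 ± 0.28 (log2, SE; adjusted p = 0.00183).

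**Figure D2:**
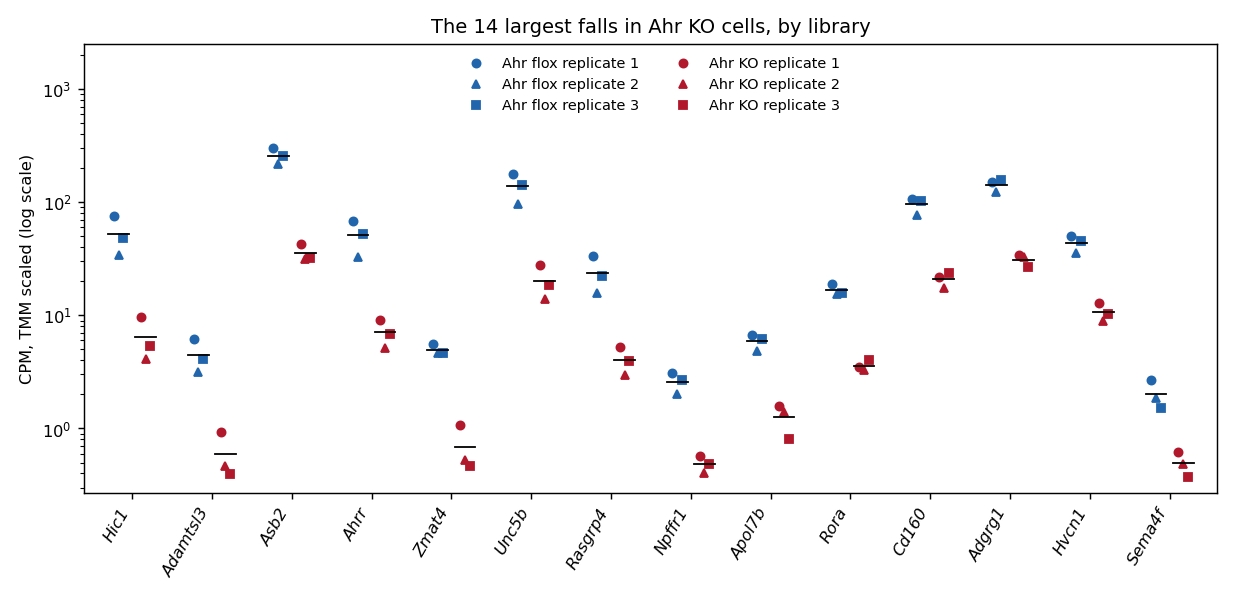
Expression of the 14 genes with the largest falls in each library (CPM, y axis, log scale), with Ahr flox in blue, Ahr KO in red, replicates 1 to 3 as circle, triangle and square, and the group mean as a bar. The genes were chosen among those whose groups do not overlap, so in each the 3 KO values lie below the 3 flox values. The triangle of flox 2 is the lowest flox value in 12 of the 14 genes.

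Genes of tissue-resident innate lymphocytes were among those that fell. Of 20 tested genes of group 1 innate lymphoid cells (ILC1) and residency 6 fell (30%) and 1 rose (5%). Over all genes 4.78% fell and 2.13% rose. The median log2 difference of the 20 was -0.73, and leaving out any 1 library left 6 lower and 1 higher. Kit, the receptor of stem cell factor, stood at 345, 201 and 283 CPM in the Ahr flox libraries and 94, 67 and 67.6 CPM in the Ahr KO libraries and fell by 1.86 ± 0.22 (log2, SE; adjusted p = 1.88e-04). Kit is also a mast cell gene, and the part of mast cells in its fall was not tested. The summed mast cell and basophil markers, higher in the same KO libraries, came nearly all from Mcpt8, which was not called. Cd69, which retains lymphocytes in tissue, stood at 108, 183 and 221 CPM in the Ahr flox libraries and 45.5, 61.6 and 66.7 CPM in the Ahr KO libraries and fell by 1.56 ± 0.31 (log2, SE; adjusted p = 0.00957). The inhibitory receptor Cd200r1 fell by 1.88 ± 0.35 and the ATP-gated channel P2rx7 by 1.76 ± 0.34. Neither gene's groups overlapped. Hic1, given above, and Rora, described with its chromosomal neighbours below, complete the 6. The single rise was in Inpp4b, a phosphoinositide phosphatase, at 48.5, 76.7 and 70.2 CPM in the Ahr flox libraries and 117, 123 and 132 CPM in the Ahr KO libraries (0.93 ± 0.19; adjusted p = 0.00864). The integrin genes Itga1 (0.30) and Itgb3 (0.20) and Rgs1 (-0.17) showed no called difference. With the replicate block 11 were lower, the added genes being Tmem176a (adjusted p = 0.0394), Ly6a (0.012), Xcl1 (0.0299), Tnfsf10 (0.0142) and Itgae (0.0165).

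Genes of circulating mature NK cells included 2 that rose (10.5%) and 1 that fell (5.26%) among 19 tested, with a median of 0.48. Over all genes 2.13% rose and 4.78% fell. Ly6c2 stood at 19.2, 32.2 and 20.9 CPM in the Ahr flox libraries and 61.7, 72.5 and 64.8 CPM in the Ahr KO libraries and rose by 1.46 ± 0.25 (log2, SE; adjusted p = 0.00313). The T-box factor Eomes stood at 229.7, 312 and 261 CPM in the Ahr flox libraries and 423, 492 and 435 CPM in the Ahr KO libraries and rose by 0.75 ± 0.16, a call lost without flox 1 (0.0558). The groups overlapped in neither gene. Emb, given above, was the fall. With the block 8 members were higher, among them Klrg1 at 14.8, 38 and 18.9 CPM in the Ahr flox libraries and 53.5, 81.1 and 60.8 CPM in the Ahr KO libraries (adjusted p = 0.00676), Irf8 (mean 487 ± 168 CPM in Ahr flox and 949 ± 137 CPM in Ahr KO; 0.00129) and Prdm1 (0.00166). Without flox 2 there were 5 higher members, and without flox 1 there was 1. The sphingosine receptor S1pr5 stood at 2.78 ± 0.498 CPM in Ahr flox and 4.18 ± 0.563 CPM in Ahr KO and was called with the block only (adjusted p = 0.00589).

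The receptor for interleukin 12, a cytokine that drives interferon gamma production in NK cells, was lower in both chains. Il12rb2 stood at 611, 312 and 428 CPM in the Ahr flox libraries and 169, 116 and 131 CPM in the Ahr KO libraries and fell by 1.70 ± 0.33 (log2, SE; adjusted p = 0.00729). Il12rb1 stood at 225, 224 and 222 CPM in the Ahr flox libraries and 138, 154 and 136 CPM in the Ahr KO libraries and fell by 0.65 ± 0.06 (log2, SE; adjusted p = 7.59e-06). Stat4, which carries the signal of this receptor to the nucleus, stood at 129, 129 and 132 CPM in the Ahr flox libraries and 105, 105 and 105 CPM in the Ahr KO libraries and fell by 0.31 ± 0.06 (log2, SE; adjusted p = 0.00471). All 3 genes had separate groups and stayed called when any 1 library was left out. They belong to a list of 23 genes of the IL-2, IL-12 and related receptors in which 6 fell and 0 rose, with a median of -0.09 (2 higher and 8 lower with the block). Leaving out 1 library gave 5 lower genes for flox 2 or KO 1 and 3 for each of the other libraries. The other 3 were Il21r (-0.28), the kinase gene Pim2 (-0.38) and Il18rap (-0.49), each lost in at least 1 such omission, with adjusted p up to 0.212, 0.19 and 0.22. The IL-2 receptor chains Il2rb (0.25) and Il2ra (-0.47) were not called, although with the block Il2rb was higher (0.0375) and Il2ra lower (0.0273). Of 20 cytokine and chemokine genes edgeR called 0, with 3 at an unadjusted p under 0.05. DESeq2 called 1 higher and 1 lower, limma voom 0, and the block 2 higher and 2 lower. Ifng, a product of IL-12 signalling, stood at 39.7, 56.2 and 73.9 CPM in the Ahr flox libraries and 67.2, 83 and 102 CPM in the Ahr KO libraries and was called higher with the block only (adjusted p = 2.61e-04).

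Mitotic genes fell nearly as a whole, by small amounts. Of 30 tested, 28 fell and 0 rose, and all 30 were below 0, with a median log2 difference of -0.44 and a range of -0.71 to -0.30. Kif23, a kinesin of cytokinesis, stood at 92, 79.9 and 90.8 CPM in the Ahr flox libraries and 56.9, 46.9 and 56.4 CPM in the Ahr KO libraries and fell by 0.71 ± 0.10 (log2, SE; adjusted p = 3.51e-04). The spindle protein gene Nusap1 stood at 159, 135 and 157 CPM in the Ahr flox libraries and 103, 93 and 108 CPM in the Ahr KO libraries and fell by 0.57 ± 0.10, and the spindle checkpoint kinase gene Bub1b fell by 0.49 ± 0.09. In these genes replicate 2 was the lowest library of each group and the groups did not overlap. The count was 28 also when flox 2 was omitted and 26 when KO 3 was. Omitting KO 1 gave 21, flox 3 gave 16, flox 1 gave 13 and KO 2 gave 11. The same 30 genes were all called higher in the Hif1a line, where 17.6% of all genes were, with a median of 0.51. In the Hif1a Ahr line 1 was called higher and 0 lower, with a median of -0.04, where 14.8% and 16.5% of all genes were. The difference between the Ahr effect and the Hif1a effect was called in all 30, beside 32.4% of all genes.

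Genes of DNA replication were lower by less. All 34 tested genes were below 0, with a median of -0.27, and 7 fell, none of them in every omission, among them E2f8 (-0.47), Rrm2 (-0.46) and Tk1 (-0.37). The count rose to 24 with the block and fell to 0 without flox 1, flox 3 or KO 2. Among 22 cell cycle inhibitors and p53 targets 5 fell and 0 rose, with a median of -0.16, and 3 fell without flox 1, flox 3, KO 2 or KO 3. The stress gene Sesn1 stood at 66, 50.5 and 56.5 CPM in the Ahr flox libraries and 39.6, 31.7 and 33 CPM in the Ahr KO libraries and fell by 0.73 ± 0.12 (log2, SE; adjusted p = 9.04e-04), Gadd45a fell by 1.25 ± 0.21 and the inhibitor gene Cdkn2a by 0.93 ± 0.18. Cdkn1a, the best known p53 target of the list, was not called (-0.23; adjusted p = 0.484).

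**Figure D3:**
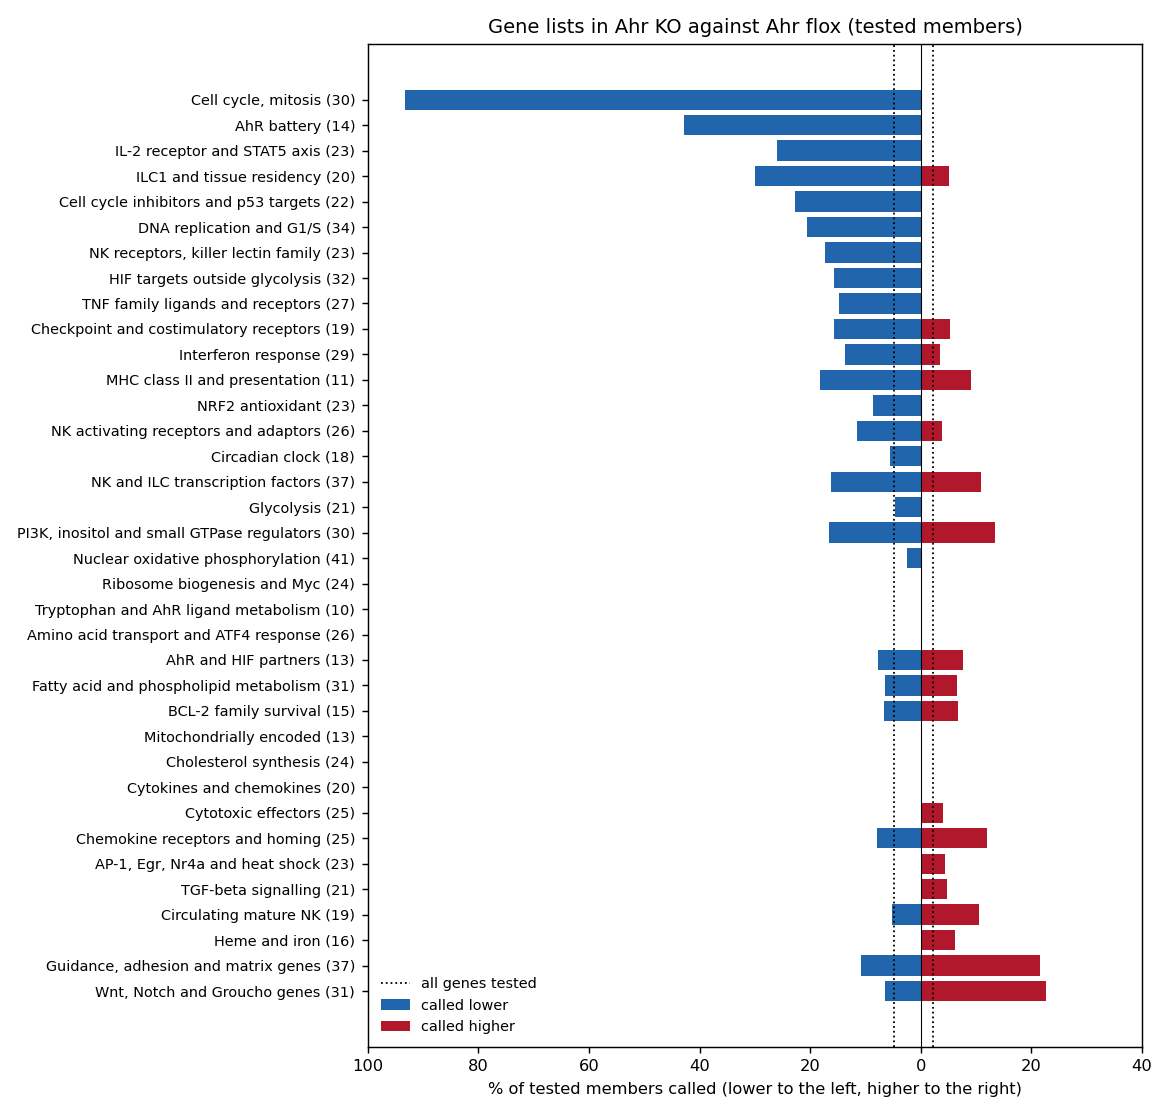
Share of the tested members of each gene list, cell type and sex markers left out, that was called lower (blue, left) or higher (red, right) in Ahr KO cells, in percent, with the number of tested members in brackets and the shares over all genes tested (4.78% and 2.13%) as dotted lines. Of 30 mitotic genes 28 were lower and of the AhR battery 6 of 14, while lists such as cholesterol synthesis have no called member.

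Among receptors by which NK cells read their targets, the falls were in a few members. Cd160, which binds the TNF receptor family member HVEM, stood at 107, 77.6 and 103 CPM in the Ahr flox libraries and 21.7, 17.3 and 23.5 CPM in the Ahr KO libraries and fell by 2.20 ± 0.40 (log2, SE; adjusted p = 0.00564). Cd96, a receptor that shares the ligand CD155 with TIGIT and CD226, stood at 256, 221 and 239 CPM in the Ahr flox libraries and 96.4, 102 and 94.2 CPM in the Ahr KO libraries and fell by 1.29 ± 0.10 (log2, SE; adjusted p = 2.70e-07). Ncr1, the driver of Cre in these mice, was the only called rise among 26 activating receptors and adaptors, at 101, 118 and 119 CPM in the Ahr flox libraries and 208, 204 and 249 CPM in the Ahr KO libraries, and it rose to a similar extent in all 3 lines (0.97 here, 0.92 ± 0.10 in the Hif1a line and 1.06 ± 0.10 in the Hif1a Ahr line). The list had a median of 0.10 and 3 falls, the last in the adaptor gene Lat (-0.37; lost without flox 1 (0.151), flox 3 (0.186), KO 1 (0.0863), KO 2 (0.177) or KO 3 (0.107)), and the block called 8 higher and 4 lower. Without flox 2 there were 3 rises, and without KO 3 there were 2.

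Of 23 killer lectin receptor genes 4 fell and 0 rose, with a median of 0.02 (4 higher and 8 lower with the block, and 2 higher without flox 2). Klrc3 fell by 1.30 ± 0.19, Klri1 by 0.76 ± 0.12 and Klri2 by 0.45 ± 0.07, and each held when any 1 library was left out. Klra8 (-0.32) was lost without flox 2 (0.0771), flox 3 (0.08), KO 1 (0.0701) or KO 3 (0.0939). Members of this family are near copies of each other, so reads may be shared between them. Among 19 checkpoint and costimulatory receptors, with a median of 0.11, Cd160 was joined by 2 falls and met by 1 rise. Lag3 fell by 0.85 ± 0.13, Tnfrsf18, which encodes GITR, fell by 0.40 ± 0.08, and Pdcd1, which encodes PD-1, rose from traces (at most 0.076 CPM in a flox library) to 0.232 CPM or more. With the block 4 were higher, and without flox 2 there were 2. Of 27 TNF family genes, with a median of -0.03, 4 fell, and 2 were lower without flox 3, KO 1 or KO 2. The block called 1 higher and 6 lower. Tnfsf8, the CD30 ligand, stood at 14.3, 9.71 and 13.8 CPM in the Ahr flox libraries and 4.91, 3 and 4.7 CPM in the Ahr KO libraries and fell by 1.58 ± 0.31 (log2, SE; adjusted p = 0.00795). Of 25 cytotoxic effector genes, with a median of 0.12, 1 was called higher, the granule transport gene Rab27a (0.44; lost without flox 1 (0.215), flox 3 (0.134), KO 1 (0.0766), KO 2 (0.172) or KO 3 (0.0899)). The block called 3 higher and 3 lower. Perforin, Prf1, stood at 2213, 3720.1 and 2643 CPM in the Ahr flox libraries and 4546, 5663 and 4423 CPM in the Ahr KO libraries, a difference of 0.77 ± 0.30 (log2, SE; adjusted p = 0.155, and 0.00255 with the replicate block).

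The largest rises included the genes of a gap junction protein, a co-receptor and a tetraspanin. Gja1, which encodes the gap junction protein connexin 43, stood at 4.41, 11.4 and 7.11 CPM in the Ahr flox libraries and 36.8, 33 and 35.4 CPM in the Ahr KO libraries and rose by 2.20 ± 0.34 (log2, SE; adjusted p = 0.00163). Nrp1, the co-receptor neuropilin 1, stood at 2.9, 5.43 and 3.69 CPM in the Ahr flox libraries and 12.3, 11.2 and 11.6 CPM in the Ahr KO libraries and rose by 1.55 ± 0.20 (log2, SE; adjusted p = 1.12e-04). Tspan32, a tetraspanin of blood cells, stood at 1.74, 3.95 and 3 CPM in the Ahr flox libraries and 11.2, 14 and 15.3 CPM in the Ahr KO libraries and rose by 2.22 ± 0.37 (log2, SE; adjusted p = 0.0021). The lowest KO library lay at least 2-fold above the highest flox library in all 3. Fibcd1, a receptor for acetylated compounds, rose by 2.44 ± 0.38 and the Wnt ligand gene Wnt7b by 1.86 ± 0.38, both under 4 CPM. The other largest rises were the Groucho family gene Tle6 (1.71 ± 0.30), the calcium sensor Kcnip3 (1.51 ± 0.28), Ramp1, a subunit of the receptor for the neuropeptide CGRP (1.48 ± 0.26), Cpne7 (1.41 ± 0.23), the peptidylarginine deiminase Padi4 (1.26 ± 0.21), Cdc20b (1.26 ± 0.22), Ubash3a, a regulator of antigen receptor signalling (1.24 ± 0.19), and the imprinted gene Peg10 (1.16 ± 0.24). Together with Ly6c2 they make the 14, and in 12 of them flox 2 was the highest flox library.

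Rises among abundant genes were smaller. Itgb1, the β1 integrin chain, stood at 557, 720.1 and 624 CPM in the Ahr flox libraries and 904, 999 and 971 CPM in the Ahr KO libraries and rose by 0.60 ± 0.11 (log2, SE; adjusted p = 0.00197). Zyx, which encodes the focal adhesion protein zyxin, stood at 207, 299.7 and 241 CPM in the Ahr flox libraries and 376, 422 and 387 CPM in the Ahr KO libraries and rose by 0.66 ± 0.13 (log2, SE; adjusted p = 0.00367). St6galnac4, a sialyltransferase gene (0.69 ± 0.14), Gramd4 (0.57 ± 0.10) and the phosphatase gene Ptpre (0.57 ± 0.10) also rose with separate groups. Of 25 chemokine receptor and homing genes, with a median of 0.02, 3 rose and 2 fell, with 1 of each without flox 1. The block called 7 higher and 4 lower. The other integrin rises were Itgal, the α chain of LFA-1 (0.58; lost without flox 1 (0.0515)), and Itga4 (0.36; lost without flox 1 (0.0602), flox 3 (0.0645), KO 1 (0.0533) or KO 2 (0.067)). Cxcr3, the receptor of interferon-induced chemokines, stood at 8.07, 7.83 and 6.47 CPM in the Ahr flox libraries and 2.66, 3.41 and 3.29 CPM in the Ahr KO libraries and fell by 1.26 ± 0.17 (log2, SE; adjusted p = 2.25e-04). Of 37 guidance, adhesion and matrix genes 8 rose and 4 fell, with a median of 0.20, and 4 rose without flox 1 or flox 3. Spp1, which encodes the secreted protein osteopontin and was among the most abundant transcripts, stood at 6717, 8499.9 and 6663 CPM in the Ahr flox libraries and 15441, 15486 and 14110.2 CPM in the Ahr KO libraries. It rose by 1.04 ± 0.27 (log2, SE; adjusted p = 0.0288), a call lost without flox 1 (0.136), flox 3 (0.113), KO 1 (0.0743), KO 2 (0.0972) or KO 3 (0.0618).

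**Figure D4:**
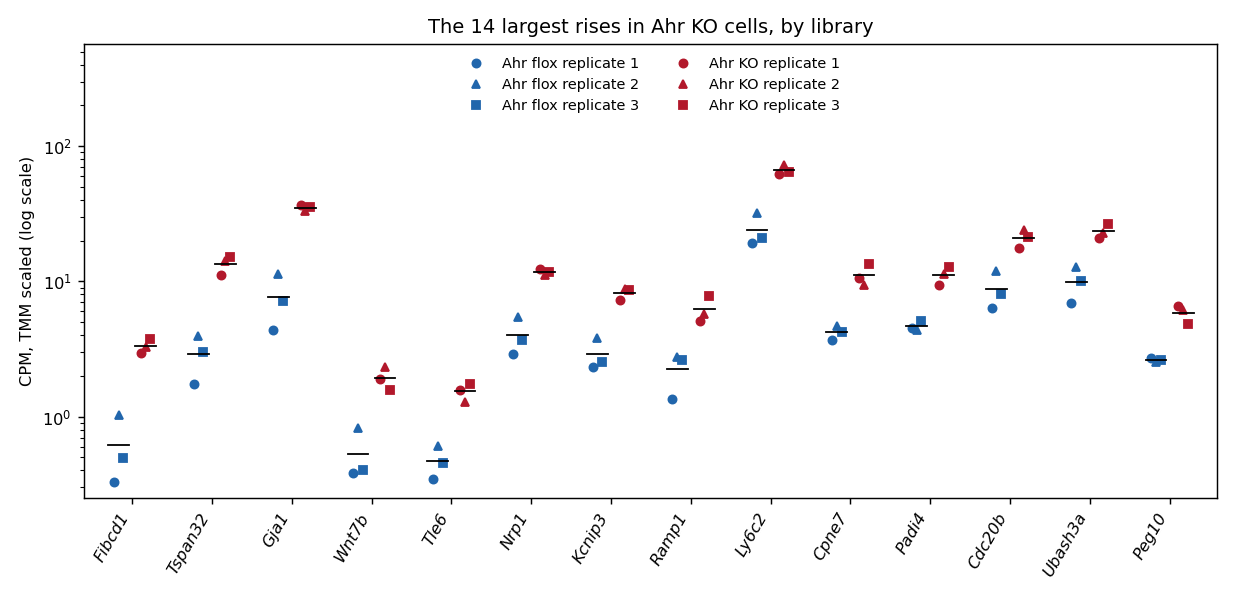
Expression of the 14 genes with the largest rises in each library (CPM, y axis, log scale), with Ahr flox in blue, Ahr KO in red, replicates 1 to 3 as circle, triangle and square, and the group mean as a bar. The genes were chosen among those whose groups do not overlap, so in each the 3 KO values lie above the 3 flox values. All but Ly6c2, Gja1, Cdc20b, Ubash3a and Tspan32 stay below 15 CPM.

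Transcription factors of NK and innate lymphoid cells changed in both directions: of 37 tested 4 rose and 6 fell, with a median of 0.18. Maf, a factor of IL-10-producing lymphocytes, stood at 12.4, 9.9 and 9.6 CPM in the Ahr flox libraries and 5.59, 5.42 and 4.34 CPM in the Ahr KO libraries and fell by 1.06 ± 0.14 (log2, SE; adjusted p = 2.25e-04). Bach2, a repressor of effector differentiation, stood at 5.51, 6.59 and 4.82 CPM in the Ahr flox libraries and 10.3, 11.8 and 10.1 CPM in the Ahr KO libraries and rose by 0.93 ± 0.18 (log2, SE; adjusted p = 0.00394). Tcf7, which encodes TCF-1, stood at 24.7, 11.2 and 21.5 CPM in the Ahr flox libraries and 6.71, 3.91 and 5.64 CPM in the Ahr KO libraries and fell by 1.82 ± 0.39 (log2, SE; adjusted p = 0.0142), although the call was lost without flox 1 (0.0718), flox 3 (0.0538) or KO 2 (0.0762). Myb stood at 9.69 ± 1.48 CPM in Ahr flox and 22 ± 0.712 CPM in Ahr KO (SD, n = 3) and rose by 1.18 ± 0.26, lost without flox 1 (0.0718) or flox 3 (0.0714). Of the list only Maf, Rora and Bach2 were called in every alternative. With the block 9 were higher and 8 lower, without flox 1 there were 1 and 3, and without flox 3 there were 2 and 2.

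Of 31 Wnt, Notch and Groucho genes 7 rose and 2 fell, with a median of 0.10. Falls numbered 5 with the block and with DESeq2, 4 without flox 2 and 1 without flox 1, flox 3 or KO 2. The Groucho corepressors went both ways: Tle4 stood at 62.6, 57 and 59.9 CPM in the Ahr flox libraries and 34.3, 37.3 and 37.4 CPM in the Ahr KO libraries and fell by 0.72 ± 0.09 (log2, SE; adjusted p = 5.42e-05), while Tle6, given above, rose and Tle2 rose by 1.23 ± 0.27 (lost without flox 1 (0.0576)). Wnt10b (1.14), the receptor Lrp5 (0.54), Tle3 (0.27) and Aes (0.33), a short Groucho gene, were also called higher. None of these 4 held in each omission, with adjusted p up to 0.122, 0.107, 0.144 and 0.161. The count of rises was 2 without flox 1, 3 without flox 3 or KO 2 and 4 without KO 1. Among 30 regulators of PI3K, inositol lipids and small GTPases, with a median of 0.05, 4 rose and 5 fell. Without flox 1 there were 1 and 2, and with the block 8 and 6. Rasgrp2, an exchange factor for Rap1 in integrin activation, stood at 16.6, 11 and 15.5 CPM in the Ahr flox libraries and 5.63, 3.97 and 4.62 CPM in the Ahr KO libraries and fell by 1.60 ± 0.20 (log2, SE; adjusted p = 1.96e-04). Rasa2 fell by 0.32 ± 0.05 and Inpp4b rose as given above, and these 3 held in every omission. Prr5, a component of mTORC2, had the smallest p-value of any gene outside chromosome 9, at 71.6, 64.1 and 67.5 CPM in the Ahr flox libraries and 27.8, 28.5 and 24.2 CPM in the Ahr KO libraries (1.34 ± 0.08 lower; adjusted p = 1.84e-08).

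Of 29 interferon response genes, with a median of -0.10, 4 fell and 1 rose, and 1 fell without flox 1 or KO 3. Ddx58, which encodes the RNA sensor RIG-I, fell by 0.39 ± 0.06 and the guanylate-binding protein gene Gbp3 rose by 0.42 ± 0.07, each in every alternative. Irf7 (-0.58; lost without flox 1 (0.0759) or KO 3 (0.0551)), Ifih1 (-0.58; up to 0.104 in an omission) and Ifit2 (-0.53; up to 0.134) were the remaining falls.

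With Hif1a intact, the glycolytic programme of hypoxic cells showed little difference by Ahr genotype. Of 21 glycolysis genes 1 fell and 0 rose, with a median of 0.01. It was Hk2, hexokinase 2, at 239.6, 225 and 226 CPM in the Ahr flox libraries and 179, 163 and 186 CPM in the Ahr KO libraries (-0.39; lost without flox 1 (0.0945), flox 3 (0.0669), KO 1 (0.0507) or KO 2 (0.113)). The block also called the glucose transporter genes Slc2a1 (adjusted p = 0.0432) and Slc2a3 (0.0367) higher. In the Hif1a line 18 of the same 21 fell, beside 17.8% of all genes. Of 32 HIF targets outside glycolysis 5 fell and 0 rose, but 3 of these, Rora, Car12 and Anxa2, lie in the chromosome 9 run described below. The block called 2 of the 32 higher and 7 lower. Outside the run 2 of 29 fell, the procollagen lysyl hydroxylases Plod2 and Plod1, whereas 28 of the 29 fell in the Hif1a line. Of all genes tested outside the run 4.66% fell in the Ahr line, and 2954 of 16721 fell in the Hif1a line. Plod2 stood at 183, 163 and 169 CPM in the Ahr flox libraries and 96, 84.9 and 86.1 CPM in the Ahr KO libraries and fell by 0.94 ± 0.06 (log2, SE; adjusted p = 8.42e-08), and it lies elsewhere on chromosome 9. Plod1 fell by 0.39 ± 0.08.

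Several metabolic lists had no member called by edgeR, DESeq2 or limma voom. All 24 cholesterol synthesis genes lay above 0 with a median of 0.21, with 1 at an unadjusted p under 0.05, and the block called 6 higher. Genes of amino acid transport and the ATF4 response had a median of 0.20 over 26 members, with 2 at an unadjusted p under 0.05, and the block called 12 higher. Mitochondrially encoded transcripts had a median of 0.26 over 13 members, with 3 at an unadjusted p under 0.05 and 3 higher with the block. Of 10 genes that make or break down AhR ligands from tryptophan 1 had an unadjusted p under 0.05, and the block called 2 higher and 1 lower. Of 23 NRF2 antioxidant genes 2 were called lower, Nqo1 and Nfe2l2, which encodes NRF2 itself (-0.50; lost without flox 1 (0.12), KO 2 (0.101) or KO 3 (0.0538)), and the block called 1 higher.

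A run of neighbouring genes on chromosome 9 was lower in Ahr KO cells and in the KO cells of the other lines. It was chosen after its values were seen, and gene order was taken from the earlier mouse build GRCm38. Between Ppib and Bnip2, 22 genes were tested and 20 were called lower in Ahr KO cells, with a median log2 difference of -0.99 over the called genes. Of the 22, 16 were called lower in all 3 lines, with medians of -0.99 in the Ahr line, -1.004 in the Hif1a line and -1.12 in the Hif1a Ahr line. The cyclophilin gene Ppib, at one end, stood at 257, 269 and 278 CPM in the Ahr flox libraries and 138, 141 and 139 CPM in the Ahr KO libraries. Bnip2, at the other end, stood at 101, 107 and 110.5 CPM in the Ahr flox libraries and 54.6, 54.5 and 53.6 CPM in the Ahr KO libraries (0.97 ± 0.05 lower; adjusted p = 8.02e-09). Spread between libraries of a group was small in both, and 11 of the 20 smallest p-values of the Ahr comparison belonged to the run. Anxa2, the most abundant member, fell by 0.74 ± 0.13, beside -2.33 ± 0.13 in the Hif1a line. The KO group of each line carries Cre and its flox group does not, while the deleted gene differs between the Ahr line and the Hif1a line. The cause of these falls was not tested. Trip4, next to Ppib, rose in all 3 lines (0.62, 0.65 ± 0.08 and 0.57 ± 0.08).

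Rora, the nuclear receptor RORα, lies within this run and did not follow its pattern. It stood at 18.9, 15.3 and 15.9 CPM in the Ahr flox libraries and 3.46, 3.27 and 4.02 CPM in the Ahr KO libraries and fell by 2.22 ± 0.29 (log2, SE; adjusted p = 3.90e-04). In the Hif1a line it was called higher (0.88 ± 0.26; adjusted p = 0.0174), and in the Hif1a Ahr line it was called lower (-1.25 ± 0.27; adjusted p = 0.00253). The difference between the Ahr effect and the Hif1a effect was -3.10 ± 0.39 (adjusted p = 3.58e-05). Near Ncr1, among 40 tested neighbours other than Ncr1 itself 3 were called higher, Lilra5, Gm15931 and Gp6, and 1 lower, Cox6b2 (lost without flox 1 (0.185), flox 3 (0.0854), KO 1 (0.159) or KO 2 (0.168)). Gm15931 was not called with the block (adjusted p = 0.0681). Gp6 stood at 0.276, 0.38 and 0.255 CPM in the Ahr flox libraries and 1.41, 1.26 and 1.24 CPM in the Ahr KO libraries, and Gp6, Lilra5 and Gm15931 were higher in all 3 lines.

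The 3 lines were then compared, each KO group against its own flox group, so the comparisons share no library. Of the 800 falls of the Ahr line, 335 (41.9%) were also called lower in the Hif1a Ahr line, where 16.5% of all genes were, and they make 12.2% of that line's falls. In the Hif1a line 454 of the 800 (56.8%, and 15.4% of that line's rises) were called higher, where 17.6% of all genes were, and 100 (12.5%) were called lower, where 17.8% were. Outside the chromosome 9 run there were 780 falls. Of these 316 (40.5%) were lower in the Hif1a Ahr line, and in the Hif1a line 453 (58.1%) were higher and 84 (10.8%) lower. Of the 357 rises, 166 (46.5%) were higher in the Hif1a Ahr line (background 14.8%), 177 (49.6%) were lower in the Hif1a line and 42 (11.8%) higher. The change in Ahr KO cells differed from that in Hif1a KO cells, by a test of the difference itself, in 671 of the falls and 280 of the rises (32.4% of all genes). Both sets were chosen by the Ahr effect, which enters that test from the same libraries. A share above that of all genes is therefore favoured by the choice.

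The genes lower in both Ahr-deleted lines and differing from the Hif1a effect numbered 187 (23.4% of the 800 falls). Those higher numbered 90 (25.2% of the 357 rises). The 14 largest falls and rises were chosen by the size of the Ahr effect, which enters the test of the difference. A high share among them is therefore favoured by the choice. Of the 14 largest falls 10 belonged to this class, beside 34.1% of all falls of at least 2-fold. Asb2, for example, fell by 2.85 ± 0.32 in the Ahr line, stood at -2.79 ± 0.32 in the Hif1a Ahr line (adjusted p = 2.09e-05) and at -0.13 ± 0.30 in the Hif1a line (adjusted p = 0.769). Ahrr, Hic1, Adamtsl3, Zmat4, Rasgrp4, Npffr1, Cd160, Rora and Hvcn1 were the others. Unc5b, Adgrg1 and Apol7b were lower in all 3 lines. Adgrg1 changed by -2.20, -3.01 ± 0.42 and -2.87 ± 0.42 in the Ahr, Hif1a and Hif1a Ahr lines. Of the 14 largest rises 5 were shared by both Ahr-deleted lines and differed from the Hif1a effect, led by Nrp1, which rose by 2.26 ± 0.20 in the Hif1a Ahr line and stood at -0.41 ± 0.20 in the Hif1a line. Another 7 of the 14 were lower in the Hif1a line and differed in the Hif1a Ahr line, where Gja1 stood at -1.07 ± 0.35 beside -3.94 ± 0.41 in the Hif1a line.

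Some changes of Ahr KO cells were not called in that direction in the Hif1a Ahr line. Emb stood at 0.65 ± 0.27 there (adjusted p = 0.0807), a difference of 2.42 ± 0.38 from the Ahr effect (adjusted p = 7.38e-04). Tcf7 was called higher there (1.82 ± 0.36), as was Tnfsf8 (adjusted p = 0.00126), and both were also higher in the Hif1a line (2.39 ± 0.37 and 2.12 ± 0.29). Il12rb2 stood at -0.60 ± 0.32 in the Hif1a Ahr line (adjusted p = 0.175, and 0.122 for the difference from the Ahr effect) and was called higher in the Hif1a line (1.12 ± 0.32), whereas Il12rb1 was lower in both (-0.96 ± 0.07 and -0.31 ± 0.06). Kit was called lower in the Hif1a Ahr line (-1.21 ± 0.21) and higher in the Hif1a line (0.99 ± 0.21). Cd69 followed Kit in the Hif1a Ahr line (-1.09 ± 0.31) and was not called in the Hif1a line (0.66 ± 0.30; adjusted p = 0.114).

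**Figure D5:**
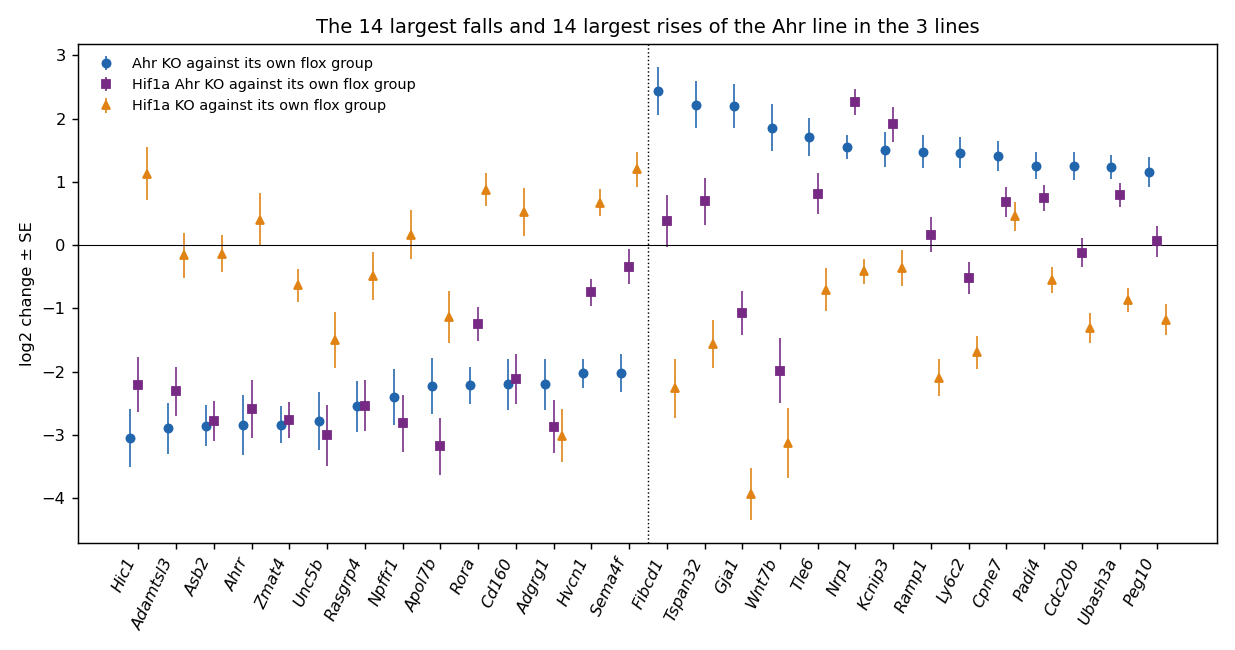
Log2 change with its standard error (y axis) of the 14 largest falls (left of the dotted line) and 14 largest rises (right) of the Ahr line, for Ahr KO (blue circles), Hif1a Ahr KO (purple squares) and Hif1a KO (orange triangles), each against its own flox group of 3 libraries. For most falls the purple squares lie beside the blue circles and the orange triangles lie nearer to 0, whereas for most rises the orange triangles lie below 0 and the purple squares in between.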

How the data were processed

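RNA of 18 samples was sequenced, 6 of them in the comparison of Ahr KO with Ahr flox. Per the submitters' processing notes, Trim Galore 0.6.4, kallisto 0.4.6, edgeR 3.17 and GRCm39 were used, with no roles given. The deposited values are estimated counts per gene, not normalised, and log2 CPM, which the authors made from them (recomputed here with a prior count of 2, largest difference 0). How transcripts were summed to genes is not given in the sources used here. The counts were rounded to whole numbers, and 70.6% of gene identifiers failed the filter on low counts. Identifiers without a symbol (0.315% of counts) were tested and not named. CPM values are TMM-scaled and given in the order of replicates 1 to 3.

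Tests used edgeR 4.0.16 in R 4.3.3: TMM, filterByExpr, a fit of all 18 libraries with a mean for each of the 6 groups, 2-sided quasi-likelihood F tests (robust), with Benjamini-Hochberg adjustment over the 16743 genes tested (12 residual degrees of freedom, common coefficient of biological variation 0.117). A gene was called at an adjusted p under 0.05. Differences of effects were contrasts in that fit. Alternatives were DESeq2 1.42.0, limma 3.58.1 voom, DESeq2 size factors, no filter, only the 6 libraries, a replicate block and each library left out. Between replicates of the 6, the chi-square of counts was 16.8 to 36.4 times its degrees of freedom, so none was a duplicate, and replicate spread rather than depth set the precision. The test was run on simulated data with known changes.

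Replicate numbers paired the libraries: deviations of same-numbered KO and flox libraries from their group means correlated at 0.52, 0.44 and 0.49 over 9986 genes of at least 5 CPM, and other pairs at -0.35 to -0.14. The labels do not say what a number shares. For the genes and lists described, the block is given where it changed a call or a count by over 1.5 times.

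The named genes are the 14 largest falls and rises (at least 1 CPM) and 8 of each at 50 CPM or more, all called in every alternative with groups that do not overlap, up to 5 called members of each of 48 lists, the called neighbours of Ncr1 and the 5 genes per direction most unlike the Hif1a effect. List members may also be named with their values, and the chromosome 9 run was chosen after its values were seen. The lists and the comparison were chosen with earlier results of these data known. Lists are described by counts and medians, without a test.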

Additional observations from a re-analysis of the deposited data

Results flagged for a closer look

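The effect of Ahr deletion differed from that of Hif1a deletion, by a test of the difference itself, in 5418 genes (32.4% of those tested). It differed from that of the double deletion in 2743 (16.4%). The 5 lower genes with the smallest adjusted p for the difference from the Hif1a effect, among called genes of at least 2-fold change and 1 CPM, were the adaptor Sla (log2 difference of effects -3.89; adjusted p = 5.25e-09), Cd96 (-1.87; 3.46e-08), the protease gene Prss16 (-2.48; 4.30e-08), Prr5 (-1.40; 6.47e-08) and Ugt1a7c (-3.32; 3.27e-07), which shares exons with other Ugt1a genes and is uncertain. Sla fell by 1.73 ± 0.16 in Ahr KO cells and was called higher in Hif1a KO (2.15 ± 0.15) and Hif1a Ahr KO cells (0.67 ± 0.15). The log2 change of Prss16 was -1.11 in Ahr KO and 1.37 ± 0.13 in Hif1a KO cells. The log2 change of Prr5 was -1.34 in Ahr KO, 0.07 ± 0.08 in Hif1a KO and -1.32 ± 0.08 in Hif1a Ahr KO cells.

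The 5 higher genes were Fam178b (4.53; adjusted p = 1.07e-06), Gja1 (6.14; 1.89e-06), Ramp1 (3.57; 2.67e-06), the aminopeptidase gene Xpnpep2 (4.82; 2.67e-06) and Arhgap6 (2.50; 6.32e-06). In each the rise in Ahr KO cells met a fall in Hif1a KO cells. Both sets of 5 were chosen by the test of the difference, and that choice favours a change in the other direction in Hif1a KO cells. Fam178b rose by 1.01 ± 0.27 in Ahr KO cells, a call lost without flox 1 (0.167), flox 3 (0.102), KO 2 (0.067) or KO 3 (0.132), and Xpnpep2 by 1.12 ± 0.29, lost without flox 1 (0.0685), flox 3 (0.123), KO 1 (0.0639), KO 2 (0.0772) or KO 3 (0.0558).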

How the results depend on the processing

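The number of genes called higher (357) was 583 with DESeq2, 705 with only the 6 Ahr libraries in the fit and 113 to 448 with 1 library left out. The number called lower (800) was 363 to 902 in those omissions. The 91 genes at least 2-fold higher became 38 to 121, and the 217 at least 2-fold lower 128 to 267. With replicate numbers as a block, the pairing gave 1033 higher, 1388 lower, 161 at least 2-fold higher and 294 at least 2-fold lower genes, and 6338 and 3819 genes for the differences from the Hif1a effect and from the Hif1a Ahr effect. The cause of these shifts was not tested, beyond the smaller number of libraries in the omissions. Estimated counts that were not rounded, an alternative added after seeing the data, gave 359 higher and 800 lower genes. Over 136 named genes and 1766 comparisons with an alternative, 1562 kept the call and direction, 202 lost the call, 2 gained it and 0 changed direction. Of the 202, 182 came from leaving out a library, and 84 of the 134 called named genes lost no call. In genes near or under 1 CPM, such as Cyp1a1, Nqo1 and Pdcd1, counts limit the precision.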

Other observations

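Outside the lists, the genes with the smallest p-values beyond the chromosome 9 genes were chosen after their values were seen. Pltp, which encodes the phospholipid transfer protein, stood at 40.6, 32.3 and 37 CPM in the Ahr flox libraries and 9.64, 10.5 and 8.7 CPM in the Ahr KO libraries and fell by 1.93 ± 0.16 (log2, SE; adjusted p = 1.34e-06), with -1.71 ± 0.16 in the Hif1a Ahr line and -0.11 ± 0.15 in the Hif1a line. Fam241b fell by 1.66 ± 0.15, with -1.71 ± 0.15 and -0.32 ± 0.14. Mvb12b, a subunit of the ESCRT-I sorting complex, fell by 0.92 ± 0.08, with -1.02 ± 0.08 and -0.07 ± 0.08. Itch, a ubiquitin ligase of lymphocytes, stood at 134, 128 and 137 CPM in the Ahr flox libraries and 93.3, 93 and 92.6 CPM in the Ahr KO libraries and fell by 0.52 ± 0.05 (log2, SE; adjusted p = 3.52e-06). It was called higher in the Hif1a line (0.35 ± 0.05; adjusted p = 1.94e-05).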
